A study of Homo sapiens with 24 samples.

Results

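Promoter-divergent long non-coding RNAs (lncRNAs) carry the suffix -DT after the name of the gene they point away from, such as LHX1-DT beside LHX1. They were taken as the lncRNA rows of the deposited feature table whose name ends in -DT, without LMNB1-DT, which starts beside an overexpressed gene. This gave 766 annotated intervals under 99 names, of 175946 features under 99452 names in all. A name can have several intervals, usually nested or overlapping, with a median of 5 and up to 64 for GMDS-DT, and 16 names have 1. Intervals of a name share reads and are not replicates of each other.

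The cells were HEK293, an established human embryonic kidney line with the genotype labelled as wild type, and every group overexpressed a protein: eGFP, a fluorescent protein, in the control group (GFP below), or the nuclear lamin LMNA, LMNB1 or LMNB2. The labels give neither the vector, the promoter nor the time after overexpression, and they name no clone. Small RNA-seq used RNA preparations in which short species had been enriched, and chromatin accessibility was measured by ATAC-seq, in which a transposase cuts open DNA, in separately collected cells of the same conditions. Each group held 3 libraries per assay, 24 in all, and nothing in the labels ties a replicate to a separate culture, so p-values measure the spread between these libraries.

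Many mammalian promoters fire in both directions. RNA polymerase II starts a messenger RNA on the gene side and a second transcript on the opposite strand, from its own start a short way upstream, inside a shared stretch of open, often CpG-rich DNA. The upstream transcripts are in general short-lived, spliced poorly and cleared by nuclear RNA decay, and those that are longer or more stable have entered gene catalogues as divergent transcripts. Lamins form the meshwork under the inner nuclear membrane and hold parts of the genome, mostly silent, at the nuclear edge.

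The annotation of the members had the layout their name implies. The partner gene had a RefSeq promoter entry for 76 of the 99 names, and in 76 of 76 it lay on the opposite strand. Distances were measured from the interval of each name that starts nearest to the partner's start, and other intervals of a name can start farther away. This nearest start lay within 1000 bp of the partner's start for 68 of the 76, and the median distance was 141 bp. In 8 of the 76 the nearest start and that of the partner were in an overlapping order, with the divergent transcript beginning inside the partner gene. Interval lengths, with 25 bp of padding on each side as deposited, ran from 317 to 429775 bp, with a median of 8143 bp. For 39 names the span from the first to the last base of its intervals, padding included, overlapped a protein-coding gene, for 33 of them the partner itself. In some of these, such as NIPBL-DT, the padding alone reaches the partner.

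RefSeq promoter sequence (GRCh38, 250 bases before to 50 after the start, read on the strand of the divergent transcript) was matched for 72 of the 99 names. The first 4 sequences below belong to the members whose counts are described most closely after LHX1-DT, and they show how short the shared stretch is. Capitals mark the bases between the start of the divergent transcript and the start of its partner. NOL4L-DT is printed as the contrast: the RefSeq start, that of the shorter NOL4L-DT interval with few counts and not of the counted interval described further on, lies 2146 bp from the partner's start, and no base is capitalised.
NIPBL-DT, chr5:36876645-36876944, minus strand: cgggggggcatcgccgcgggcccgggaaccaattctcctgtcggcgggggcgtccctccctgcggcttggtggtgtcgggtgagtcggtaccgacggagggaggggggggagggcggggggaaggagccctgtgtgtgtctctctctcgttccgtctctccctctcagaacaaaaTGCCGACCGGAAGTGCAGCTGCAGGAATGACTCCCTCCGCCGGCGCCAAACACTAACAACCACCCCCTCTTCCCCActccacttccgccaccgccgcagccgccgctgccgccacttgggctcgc
NUP50-DT, chr22:45163732-45164031, minus strand: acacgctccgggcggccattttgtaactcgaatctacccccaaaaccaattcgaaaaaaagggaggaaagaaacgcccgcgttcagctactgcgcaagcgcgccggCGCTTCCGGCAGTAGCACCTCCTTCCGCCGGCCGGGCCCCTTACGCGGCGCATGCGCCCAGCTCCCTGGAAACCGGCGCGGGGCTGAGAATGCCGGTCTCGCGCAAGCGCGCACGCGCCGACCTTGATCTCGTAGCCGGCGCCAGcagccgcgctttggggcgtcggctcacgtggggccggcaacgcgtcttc
GMDS-DT, chr6:2245503-2245802, plus strand: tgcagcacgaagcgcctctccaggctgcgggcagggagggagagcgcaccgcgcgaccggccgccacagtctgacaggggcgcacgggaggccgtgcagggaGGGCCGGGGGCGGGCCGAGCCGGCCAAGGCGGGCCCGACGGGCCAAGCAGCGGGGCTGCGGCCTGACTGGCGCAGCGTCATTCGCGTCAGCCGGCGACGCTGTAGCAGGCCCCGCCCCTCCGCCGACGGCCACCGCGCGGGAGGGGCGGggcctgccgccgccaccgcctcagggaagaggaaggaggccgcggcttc
EIF3J-DT, chr15:44536874-44537173, minus strand: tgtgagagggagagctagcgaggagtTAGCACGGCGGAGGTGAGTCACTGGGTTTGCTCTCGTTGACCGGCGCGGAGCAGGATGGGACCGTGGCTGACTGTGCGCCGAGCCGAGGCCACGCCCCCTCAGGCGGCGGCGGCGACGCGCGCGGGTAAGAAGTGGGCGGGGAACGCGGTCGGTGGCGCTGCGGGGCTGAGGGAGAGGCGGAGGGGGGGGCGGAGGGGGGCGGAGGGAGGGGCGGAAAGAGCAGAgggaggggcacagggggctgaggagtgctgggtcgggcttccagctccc
NOL4L-DT, chr20:32587229-32587528, plus strand: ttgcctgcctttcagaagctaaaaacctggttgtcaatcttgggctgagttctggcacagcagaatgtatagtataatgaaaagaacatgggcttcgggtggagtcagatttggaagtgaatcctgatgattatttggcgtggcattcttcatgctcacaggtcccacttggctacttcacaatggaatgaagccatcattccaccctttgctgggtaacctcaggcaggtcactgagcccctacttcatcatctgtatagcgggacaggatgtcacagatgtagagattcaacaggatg

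The 300-base promoter windows of most members were GC-rich. In the windows printed, the ratio of observed to expected CpG dinucleotides, which is near 1 where CpGs have not been lost, was 0.79 for NIPBL-DT, 1.29 for NUP50-DT, 0.9 for GMDS-DT and 0.93 for EIF3J-DT, against 0.18 for the NOL4L-DT window. Over the 72 members its median was 0.894, and over all 27305 RefSeq promoters 0.58. The ratio was above 0.6 in 63 members (87.5%) and in 48.9% of all promoters. Median GC content was 68.3% against 58.3%. EPCAM-DT, the member with the most small RNA counts, was also CpG-poor, at 0.24.

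Letter motifs were searched on both strands of the same windows. GGGCGG, the core of an Sp1-type GC box, occurred in 58 of the 72 (80.6%) and in 44.6% of all promoters. CCGGAAG, an ETS-type core, occurred in 23.6% against 10.7%, and the NRF1 palindrome in 5 of 72 (6.9%) against 1.4%. The TATAAA letters of a TATA box were rarer in the members, at 2.8% against 12%. The polyadenylation letters AATAAA were found in 8.3% against 17.8%, and GGTAAG, which resembles a 5′ splice site, in 6.9% against 7.9%. NUP50-DT holds both CCGGAAG and the NRF1 palindrome, and NIPBL-DT holds CCGGAAG. These are letter matches, with no test of binding. The members had a higher median GC content than all promoters (68.3% against 58.3%). The promoters compared were not matched for GC content, and its part in the motif shares was not tested.

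Total small RNA counts ran from 132.5 to 195.1 M (mega) per library and ATAC counts over feature windows from 156.0 to 290.2 M, sums in which overlapping features count the same reads again. The mitochondrial chromosome held 39.9 to 47.5% of the ATAC counts in GFP, 39.4 to 44.1% in LMNA, 32.8 to 34.1% in LMNB1 and 24.5 to 30.7% in LMNB2, and the part of this difference in the results was not tested. The labels were checked on the most counted table feature over each overexpressed gene: it stood at 122 to 143 CPM (counts per 1 M counts) in the LMNB1 libraries against at most 1.52 elsewhere, and at 392 to 419 CPM in the LMNB2 libraries against at most 2.11. Over LMNA that feature stood at 0.020 to 0.062 CPM in the LMNA libraries and at 0.022 to 0.113 in the others, so the table gives no such check of the LMNA label. Of 14 microRNAs that mark liver, blood, muscle, neurons or fibroblasts, 12 were in the table, with at most 6 counts in any library, and the proliferation cluster miR-17-92 and the miR-10 genes were present in every library.

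Members were sparse in small RNA. The median over the 766 intervals was 3.25 counts per library, 187 intervals reached a mean of 10, and 13 had no count in any library. After the low-count filter 217 intervals under 30 names remained for testing (28.3% of the 766, against 35.4% of intervals of named antisense lncRNAs, 16.2% of LINC lncRNAs and 19.3% of all features), so counts of tested members below do not describe all 99 names. With the highest interval of each name added up, EPCAM-DT alone made up 74.4% and the top 10 names 89.6%. At the other end, 74 names stayed below a mean of 10 counts and 10 names below 1.

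EPCAM-DT lies beside EPCAM, an epithelial adhesion molecule. Its interval of 152635 bp (chr2:47192380-47345014) held 1656, 1058 and 9018 counts in the GFP libraries, 4859, 2561 and 3657 in those of LMNA, 5426, 3877 and 5819 in those of LMNB1, and 3454, 2066 and 4117 in those of LMNB2. GFP replicate 3 was the highest of the 12 and GFP replicate 2 the lowest, so the control group spanned every other library. Log2 fold changes against GFP were -0.07 ± 0.60 (SE here and below), 0.31 ± 0.60 and -0.20 ± 0.60 in LMNA, LMNB1 and LMNB2, none of them past the test. Almost all of these counts fell outside the part next to the promoter: the nested interval from position 47323396 to the same end held 19 to 37 counts per library. The longest EPCAM-DT interval overlaps 3 table features of other RNA classes, and their part in its counts was not tested.

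VPS33B-DT and EIF3J-DT, also highly counted, held their counts unevenly too, but not at the same place. The VPS33B-DT interval of 166744 bp (chr15:90869893-91036636) held a mean of 342 counts. It covers the partner VPS33B, the gene of a vesicle-sorting protein, and overlaps 8 protein-coding genes in all, and reads of these genes and of the lncRNA cannot be told apart in it. The 10 shorter VPS33B-DT intervals lie at its far end, from position 91022594 on, and held a mean of at most 3.25. In EIF3J-DT, beside a subunit gene of translation initiation factor eIF3, the counts were highest across the promoter: the interval that runs into EIF3J (chr15:44534390-44537486) held 19 to 105 counts per library, although it is only 3097 bp long. Intervals of similar length that end before the partner's start held at most 11. Without strand in the sources used here, reads of the partner's first exon and of the divergent transcript cannot be told apart in an interval that runs into EIF3J. The longest EIF3J-DT interval, 12669 bp (chr15:44524034-44536702), ends before the partner's start and held a mean of 32.42 counts. An interval of 9471 bp with the same end held a mean of 10.83, so counts also lay at the far end of EIF3J-DT.

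LHX1-DT was the member that changed. LHX1 encodes a LIM-homeobox transcription factor known for its part in kidney and head development. The longest LHX1-DT interval, 75038 bp on the minus strand (chr17:36861649-36936686), held 8, 8 and 18 small RNA counts in the GFP libraries, 12, 11 and 16 in those of LMNA, 23, 14 and 18 in those of LMNB1, and 33, 36 and 40 in those of LMNB2. The LMNB2 libraries were the 3 highest of the 12, and none of them overlapped a library of another group.

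In units of CPM the LHX1-DT level was 0.0763 ± 0.0223 in GFP (SD, n = 3), 0.0814 ± 0.0106 in LMNA, 0.110 ± 0.027 in LMNB1 and 0.238 ± 0.0431 in LMNB2. LMNB2 exceeded GFP by 1.46 ± 0.28 on the log2 scale (adjusted p = 0.0098, quasi-likelihood test of edgeR, Benjamini-Hochberg adjusted over 33893 features). The difference was 0.05 ± 0.32 in LMNA (adjusted p = 0.997) and 0.43 ± 0.30 in LMNB1 (adjusted p = 0.861). In order of level, GFP, LMNA and LMNB1 overlapped library by library, and LMNB2 stood above all 3.

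**Figure D1:**
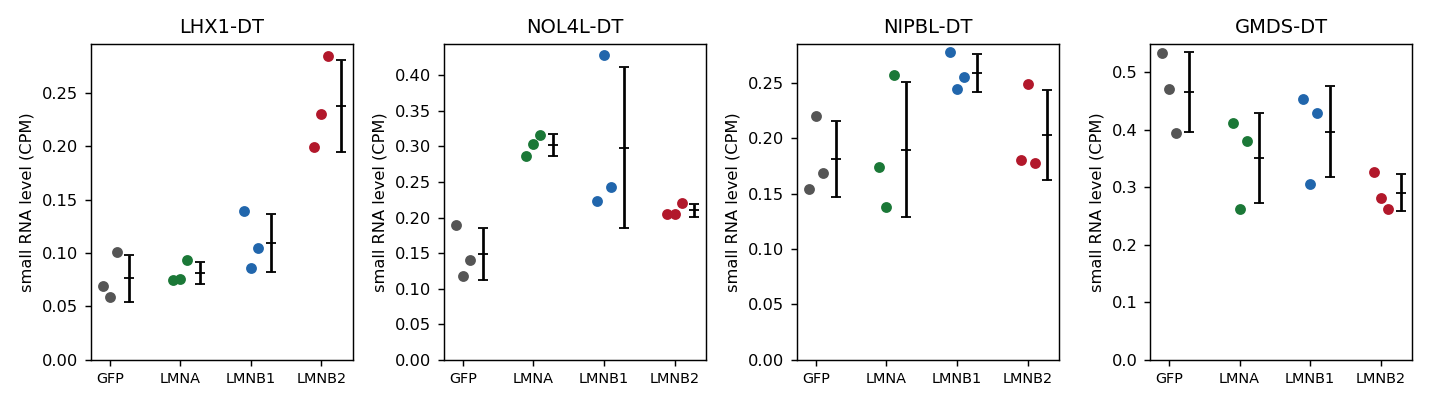
Small RNA level (CPM, from 0) of the most counted interval of 4 members in each library. Points are the 3 libraries of a group and bars the mean with its SD. The LMNB2 points of LHX1-DT, 0.199 to 0.284, lie above the other 9 libraries, which reach 0.139, while in NIPBL-DT, here its longest interval, and in GMDS-DT at least 3 groups overlap.

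LHX1-DT has 9 intervals, and 4 passed the low-count filter. The other 3 tested intervals are 29415 to 29717 bp long, lie within the longest and share its start. They rose by 1.31, 1.29 and 1.27 in LMNB2 (adjusted p = 0.0238, 0.0267 and 0.0277 by edgeR). The longest of these 3 held 6, 6 and 10 counts in GFP and 23, 20 and 24 in LMNB2. These are mostly the same reads, counted in 4 rows.

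The remainder of the longest interval, beyond the nested one, held 2, 2 and 8 counts in the GFP libraries, 4, 3 and 4 in those of LMNA, 8, 7 and 6 in those of LMNB1, and 10, 16 and 16 in those of LMNB2. Reads that cross the boundary may fall in either part. The 4 short untested intervals near the start, 4118 to 5149 bp long, held 1 to 5 counts in GFP, 2 to 6 in LMNA, 3 to 7 in LMNB1 and 6 to 11 in LMNB2. In the start-side part and in the remainder the LMNB2 libraries held more counts than any other library. No interval of LHX1-DT overlaps a table feature of another RNA class or a protein-coding gene.

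**Figure D2:**
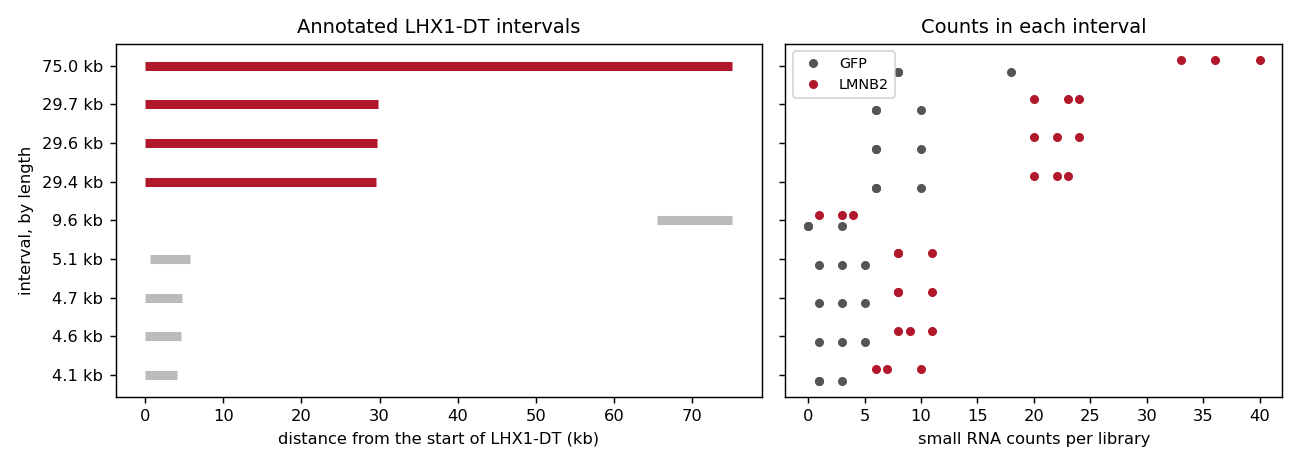
Left, the 9 annotated LHX1-DT intervals by distance from the start of the transcript (kb), with tested intervals in red and untested ones in grey. Right, small RNA counts of the same intervals in the 3 GFP and 3 LMNB2 libraries. The longest interval holds 8 to 18 counts in GFP and 33 to 40 in LMNB2.

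The lamins differed from each other at LHX1-DT. The longest interval was higher in LMNB2 than in LMNA by 1.40 ± 0.27 (adjusted p = 0.00892) and than in LMNB1 by 1.03 ± 0.25 (adjusted p = 0.0297), both by edgeR. Neither comparison was refitted with a library left out. In these comparisons the members called were 4 in LMNB2 against LMNA and 1 in LMNB2 against LMNB1, all of them LHX1-DT, where 2.01% and 2.19% of all tested features were called and 1.74% and 1.82% were called higher. Between LMNB1 and LMNA no member was called (0.0118% of all features), with 13 members at an unadjusted p under 0.05 (5.74% of all features). In the joint edgeR test of the 4 groups, which called 1.68% of features, 4 members passed, again with LHX1-DT leading (adjusted p = 0.00686).

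The ATAC window over the longest LHX1-DT interval did not follow. It held 23.6, 22.9 and 22.9 CPM in the GFP libraries, 23, 24 and 23.1 in those of LMNA, 23.6, 24.1 and 23.7 in those of LMNB1, and 24, 21.8 and 24.1 in those of LMNB2. The LMNB2 libraries span the GFP libraries, and the log2 difference was 0.01 ± 0.05 (adjusted p = 0.99 by edgeR). This window covers 75288 bp at 0.311 CPM per kb, while the shortest LHX1-DT interval, at the start, stood at 1.97. Group values of the short start windows are not given here, so the wide window does not describe the promoter alone. The LHX1-DT call rests on 8 to 40 counts per library: it was lost when LMNB2 replicate 2 or replicate 3 was left out (adjusted p = 0.0539 and 0.0658) and when only the 6 LMNB2 and GFP libraries were fitted (adjusted p = 0.074), with log2 differences of 1.33 to 1.48.

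Over all tested members, LMNB2 against GFP gave 4 calls of 217 (1.84%), the LHX1-DT intervals, all higher. The share over all tested features was 2.66%, and 1.91% were higher, so the share of members called is no larger than the background. At an unadjusted p under 0.05 there were 58 members (26.7%, against 19.9% of all features), 16 higher and 42 lower, but they belong to only 6 names, and 39 of the 42 lower are GMDS-DT intervals. The LMNB2 and GFP libraries did not overlap in 20 members that were higher and 45 that were lower, where 22.3% of all features show no overlap. These belong to 11 names: 40 of the 45 lower are GMDS-DT intervals and 10 of the 20 higher are NUP50-DT intervals, which share reads. The median log2 fold change of the 217 was -0.15, that of all tested features -0.04, and that of 1 interval for each of the 30 names -0.03.

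LMNA against GFP gave 0 calls among the members and 0% among all tested features by edgeR, with a lowest adjusted p of 0.742. At an unadjusted p under 0.05 there were 4 members (5.46% of all features passed), all higher, and DESeq2 called 0. LMNB1 against GFP also gave 0 calls by edgeR and by DESeq2, where 0.0384% of all features were called, with a lowest adjusted p of 0.703. Here 11 members were at an unadjusted p under 0.05 (5.51% of all features), 10 of them higher. Libraries did not overlap for 25 members in LMNA (9.5% of all features) and for 22 in LMNB1 (10.1%).

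**Figure D3:**
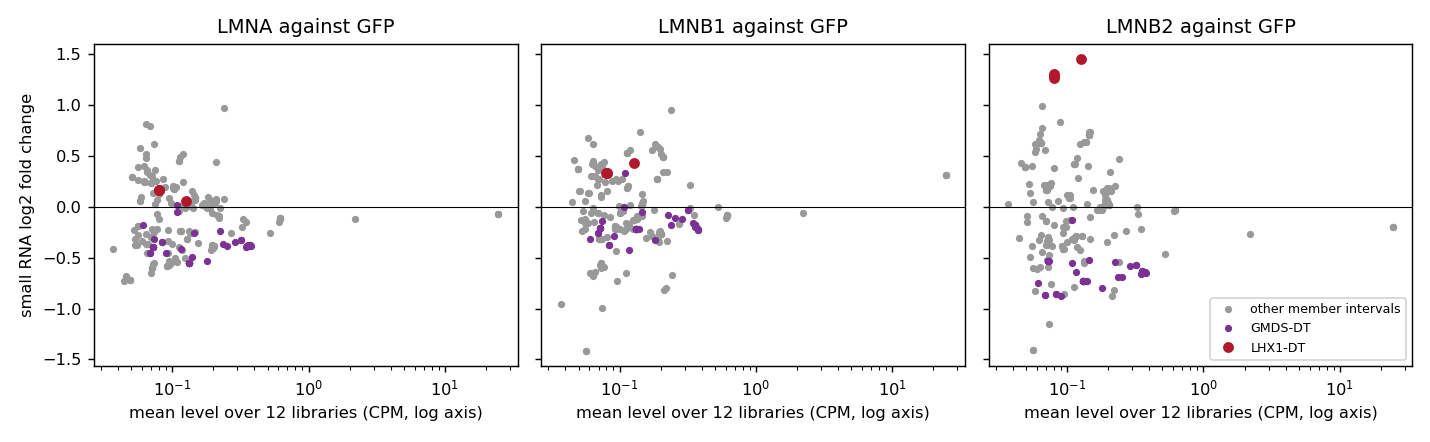
Small RNA log2 fold change against GFP of the 217 tested member intervals (vertical axis) by mean level over 12 libraries (CPM, log axis), with a panel per lamin. LHX1-DT intervals (red) stand at 1.27 to 1.46 in the LMNB2 panel and near the other members in the LMNA and LMNB1 panels. GMDS-DT intervals (purple) lie below 0 in LMNB2.

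GMDS-DT starts beside GMDS, the gene of GDP-mannose 4,6-dehydratase, an enzyme of fucose synthesis, and it has the most intervals. The interval of 167889 bp with its highest counts (chr6:2245728-2413616) held 62, 64 and 70 counts in the GFP libraries, 66, 38 and 65 in those of LMNA, 75, 50 and 74 in those of LMNB1, and 54, 44 and 37 in those of LMNB2. After scaling these were 0.394 to 0.533 CPM in GFP and 0.263 to 0.326 in LMNB2, with no overlap. The log2 difference was -0.65 ± 0.21 (adjusted p = 0.0896 by edgeR), and LMNA and LMNB1 stood at -0.38 ± 0.20 and -0.22 ± 0.20.

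The 47 tested GMDS-DT intervals had log2 fold changes of -0.88 to -0.13 in LMNB2, all below 0, and none passed the test (lowest adjusted p = 0.0829). Against the same GFP libraries, only 1 of the 47 was above 0 in LMNA (-0.56 to 0.02) and 1 in LMNB1 (-0.43 to 0.33). Of all tested features, 43.1% were above 0 in LMNA and 44.1% in LMNB1. These intervals share reads and the comparisons share their control, so the counts do not establish a direction common to the lamins. Without GFP replicate 3, 16 GMDS-DT intervals passed in LMNB2, at -0.75 to -0.70 (adjusted p = 0.0295 to 0.0491). The same omission raised the member calls from 4 to 24: the 16 of GMDS-DT, 4 of LHX1-DT, 3 of CHKB-DT and 1 of NUP50-DT. The share of all features called with that omission is not given here, so the 24 have no background beside them. GFP replicate 3 had the most member counts of the 12 libraries, 34805 against 9516 to 25433, most of them EPCAM-DT counted in nested rows. Without EPCAM-DT it held 7714, within the 5439 to 7923 of the other libraries, and its TMM scaling factor was 1.31 against 0.631 and 0.905 in the other 2 GFP libraries. The ATAC window of the same GMDS-DT interval was at 18.1 to 19.9 CPM in GFP and at 17.9 to 18.9 in LMNB2.

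NUP50-DT is the divergent partner of NUP50, which encodes a nucleoporin of the nuclear basket. The NUP50-DT interval with the lowest p (chr22:45152566-45163829) held 4, 5 and 10 counts in the GFP libraries, 13, 7 and 8 in those of LMNA, 8, 9 and 14 in those of LMNB1, and 17, 12 and 17 in those of LMNB2. Its LMNB2 libraries lay above the GFP libraries, by 0.99 ± 0.37 (adjusted p = 0.0946 by edgeR), and overlapped those of LMNA and LMNB1. All 16 tested NUP50-DT intervals had positive log2 fold changes in LMNB2, 0.03 to 0.99, and 11 were at an unadjusted p under 0.05, but none passed the test. In LMNA 11 of the 16 and in LMNB1 8 of the 16 were above 0.

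CHKB-DT lies beside CHKB, a choline kinase gene of phospholipid synthesis. Its most counted interval (chr22:50583222-50600153) held 3, 3 and 15 counts in GFP and 13, 13 and 16 in LMNB2. GFP replicate 3 alone reached the LMNB2 libraries, and the difference of 0.78 ± 0.43 did not pass (adjusted p = 0.244).

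NOL4L-DT was the member with the lowest p in both LMNA and LMNB1, without passing the test. Its interval of 43949 bp (chr20:32564967-32608915) held 22, 16 and 25 counts in the GFP libraries, 46, 44 and 54 in those of LMNA, 37, 70 and 42 in those of LMNB1, and 34, 32 and 31 in those of LMNB2. Every lamin library was above every GFP library in CPM. The log2 differences were 0.97 ± 0.25 (adjusted p = 0.742), 0.95 ± 0.25 (adjusted p = 0.703) and 0.47 ± 0.26 (adjusted p = 0.295 by edgeR) in LMNA, LMNB1 and LMNB2. The 3 comparisons share the GFP libraries. With no low-count filter NOL4L-DT passed in LMNA (adjusted p = 0.0234) and in LMNB1 (adjusted p = 0.034). The interval overlaps the NOL4L gene on the opposite strand, and reads of NOL4L and of the lncRNA cannot be told apart in it. The other NOL4L-DT interval starts at position 32587454, outside NOL4L, whose start is at 32585333. It held 0 to 5 counts per library, a mean of 2.0 against 37.75 in the longer interval. Most of the counts thus lay in the part that reaches into NOL4L.

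NIPBL-DT shares its promoter with NIPBL, the gene of the cohesin loader. The interval chr5:36871894-36876232 held 13, 19 and 17 counts in the GFP libraries, 21, 15 and 26 in those of LMNA, 32, 32 and 36 in those of LMNB1, and 18, 19 and 17 in those of LMNB2. The LMNB1 libraries were the 3 highest, and the other groups overlapped. LMNB1 differed from GFP by 0.73 ± 0.23, LMNB2 by 0.02 ± 0.25 and LMNA by 0.16 ± 0.25, with an adjusted p of 0.77 for LMNB1. Of 10 tested NIPBL-DT intervals, 10 were above 0 in LMNB1, at 0.25 to 0.73, 10 in LMNA, at 0.01 to 0.16, and 8 in LMNB2.

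The remaining members with the lowest p were at lower counts. EIF3J-DT (chr15:44527232-44536702) held 6, 8 and 6 counts in GFP and 10, 15 and 18 in LMNA, a difference of 0.79 ± 0.38 (adjusted p = 0.895). NCK1-DT, beside the gene of a signalling adaptor, held 4, 9 and 13 counts in GFP and 15, 13 and 19 in LMNA in the interval chr3:136849846-136862044 (0.61 ± 0.34, adjusted p = 0.895). In both the LMNA libraries lay above the GFP libraries in CPM, and neither passed the test.

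ITGB1-DT lies beside the gene of integrin beta 1, a receptor for the extracellular matrix. It held 12, 12 and 13 counts in the GFP libraries, 19, 17 and 26 in those of LMNA, 21, 17 and 29 in those of LMNB1, and 19, 19 and 20 in those of LMNB2 (chr10:32958365-33082462). All 11 tested ITGB1-DT intervals had positive log2 fold changes in each lamin, 0.23 to 0.58, 0.22 to 0.67 and 0.17 to 0.61, against the same 3 GFP libraries, and none passed the test.

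Partner genes were grouped by the opening letters of their symbols, which leaves out genes of like function with other names, such as the homeobox genes BARX1, DLX2 and GSC or the tRNA synthetase gene GARS. In these groups the members were few. In the group of translation and mitochondrial ribosome genes, 26 intervals of EIF3J-DT and MRPS30-DT were tested, 22 of them MRPS30-DT, and none passed. MRPS30-DT, beside a mitochondrial ribosomal protein gene, held 72, 88 and 91 counts in GFP and 68, 69 and 60 in LMNB2 (chr5:44777242-44844622). This interval runs past the start of MRPS30, at position 44808947, and overlaps that gene. The other MRPS30-DT intervals held a mean of at most 19.75 counts. Reads of MRPS30 and of the lncRNA cannot be told apart in the longer-reaching interval. There the LMNB2 libraries lay below the GFP libraries after scaling, by -0.46 ± 0.16 (adjusted p = 0.118 by edgeR). The 22 tested MRPS30-DT intervals were all below 0 in LMNB2 (-0.60 to -0.09). Against the same GFP libraries all 22 were also below 0 in LMNA (-0.65 to -0.26), and none was above 0 in LMNB1.

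None of 8 tested intervals passed beside zinc finger genes, where ZKSCAN2-DT had the lowest p (-0.73 ± 0.51 in LMNA, adjusted p = 0.895). The same held for the 7 tested intervals of CSTF3-DT, beside a pre-mRNA cleavage factor gene, for the 7 of RAB30-DT and VPS33B-DT, beside vesicle traffic genes, and for the 5 of MAP4K3-DT, beside a kinase gene. Of the 2 names in the group of developmental transcription factor genes, CEBPA-DT and LHX1-DT, only the 4 LHX1-DT intervals passed the count filter. No interval was tested beside the chromatin genes KDM7A and PRDM16 or in the cell cycle group.

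In ATAC-seq the open chromatin lay mostly on the start side of the members. They were chosen by a name that places their start beside that of a partner gene. The start-side flank therefore often lies on the partner's side of the shared promoter, and an open start side partly follows from this choice. The deposited table gives a window on each interval and flanks of 500, 5000 and 50000 bp that begin 350 bp outside it, and strand tells which flank is on the start side. The median ATAC level in the 500 bp start-side flank was 1.70 CPM per kb, against 0.284 in the window itself and 0.0811 in the 500 bp end-side flank. The start side exceeded the end side in 689 of the 766 intervals (89.9%).

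Intervals of named antisense lncRNAs (suffix -AS) showed a smaller step, 0.273 against 0.0803 CPM per kb with 75.9% higher at the start, and LINC intervals a step of 0.0887 against 0.0673 with 61.6%. The ratio of the medians was thus 20.9 for the divergent transcripts, 3.4 for antisense and 1.32 for LINC intervals. At 5000 bp the start side of the divergent transcripts was at 0.371 and the end side at 0.0737 CPM per kb, and at 50000 bp at 0.154 and 0.113. Intervals of a name share flanks, so the difference between the sets is given as a description.

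**Figure D4:**
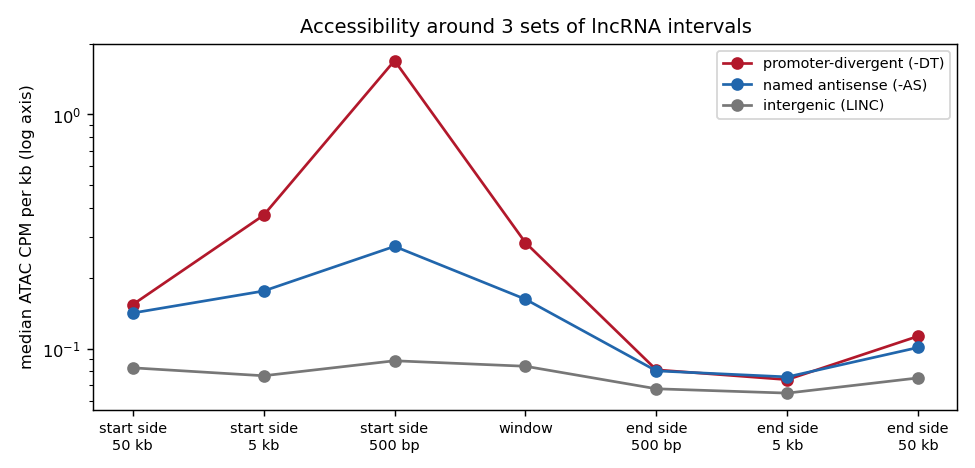
Median ATAC level (CPM per kb, log axis, 12 libraries averaged) in the window on each interval and in flanks of 500 bp, 5 kb and 50 kb on its start and end side, for 766 -DT, 8957 -AS and 10619 LINC intervals. The -DT line peaks at 1.70 in the start-side 500 bp and is close to the -AS line on the end side.

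This step was present in every library and did not separate the groups. The start-side 500 bp median was 1.73 ± 0.221 CPM per kb in GFP (SD, n = 3), 1.73 ± 0.134 in LMNA, 1.57 ± 0.0792 in LMNB1 and 1.58 ± 0.0392 in LMNB2. The ratio of start-side to end-side medians was 21.7 ± 6.47, 21.3 ± 2.28, 18.8 ± 2.64 and 20.3 ± 1.85 in the same order. The groups differ by less than the spread of the GFP libraries.

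Within a name, the shortest interval was more often the more open than the longest. Of 83 names with more than 1 interval, the shortest had a higher ATAC level per kb than the longest in 56, with medians of 0.942 and 0.311 CPM per kb. LHX1-DT stood at 1.97 in its shortest interval and 0.311 in its longest, and NIPBL-DT at 4.15 and 0.760. GMDS-DT and NUP50-DT went the other way, at 0.0738 against 0.112 and 0.0345 against 0.185.

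The most open windows per kb were short intervals of NDUFA6-DT (a complex I subunit partner), ITGB1-DT, UVRAG-DT (an autophagy gene partner), CHKB-DT and NCK1-DT. The NDUFA6-DT window chr22:42090817-42091746 held 10.4, 10.9, 10.5 and 10.2 CPM on average in GFP, LMNA, LMNB1 and LMNB2. UVRAG-DT held 11.6, 11.7, 11.6 and 11.1 CPM in the window chr11:75814337-75815556. Their log2 fold changes against GFP lay between -0.06 and 0.07, and those of the other 3 windows between -0.11 ± 0.08 (CHKB-DT in LMNB2) and 0.11 ± 0.13 (ITGB1-DT in LMNB1).

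No member window passed the ATAC test in any lamin. All 766 windows were tested with 163786 in all, and by edgeR 0 members were called in LMNA, LMNB1 and LMNB2 (0.000611%, 0.00305% and 0.00244% of all windows), with lowest adjusted p of 0.867, 0.978 and 0.752. DESeq2 also called 0. At an unadjusted p under 0.05 there were 27, 27 and 33 members (3.52%, 3.52% and 4.31%), where 5.19%, 4.78% and 5.72% of all windows passed. Between lamins there were likewise 0 member calls (0.223% of windows called in LMNB1 against LMNA, 0.00305% in each of the other 2), with 15, 31 and 24 members at an unadjusted p under 0.05 (5.37%, 7.17% and 4.98% of all windows), and 0 in the joint test (0.0421% of windows).

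Median log2 fold changes of the member windows against GFP were 0.01 for LMNA, 0.01 for LMNB1 and -0.03 for LMNB2, while those of all windows were within 0.01 of 0. In LMNB2, 483 of the 766 were below 0, and 32 of the 33 windows at an unadjusted p under 0.05 were lower. With each library left out in turn the member medians ran from -0.02 to 0.03 in LMNA, -0.02 to 0.04 in LMNB1 and -0.07 to 0.0 in LMNB2, so no direction is claimed. Counted by name, through the most counted interval, 70 of 99 were below 0 in LMNB2, 44 in LMNB1 and 45 in LMNA. The spread over the 99 names ran from -0.45 to 0.56 in LMNA, -0.23 to 0.95 in LMNB1 and -0.36 to 0.65 in LMNB2. The upper end in each was CDKN2A-DT, with a mean of 20.9 counts per library.

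**Figure D5:**
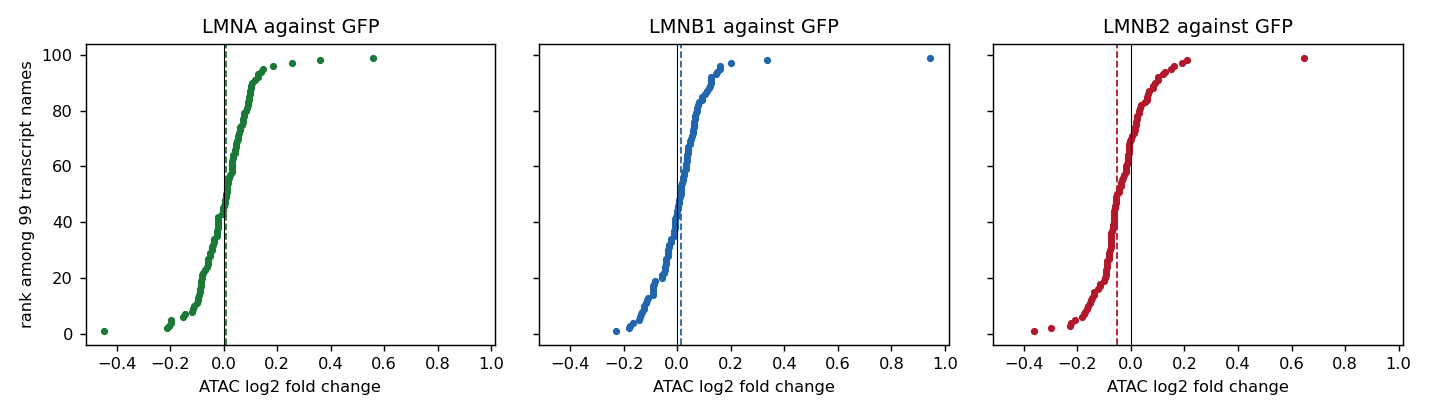
ATAC log2 fold change against GFP of the most counted interval of each of the 99 names, ranked, with a panel per lamin. The solid line is 0 and the dashed line the median over names, which is 0.01 in LMNA and LMNB1 and -0.05 in LMNB2.

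CTBP1-DT had the lowest p of the member windows against GFP, without passing the test. CTBP1 encodes a transcriptional corepressor. The window chr4:1249123-1252256 at the start of CTBP1-DT held 2.34, 2.04 and 2.06 CPM in the GFP libraries, 1.79, 2.13 and 1.87 in those of LMNA, 1.76, 1.87 and 1.75 in those of LMNB1, and 1.64, 1.77 and 1.5 in those of LMNB2. This window contains the start of CTBP1 itself, at position 1250355, so it does not describe the divergent transcript alone. Libraries of LMNB1 and of LMNB2 lay below those of GFP in it. The log2 differences were -0.16 ± 0.10, -0.25 ± 0.10 and -0.39 ± 0.10 in LMNA, LMNB1 and LMNB2, with adjusted p of 0.98, 0.978 and 0.752.

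Other windows with the lowest p were small in size or in counts. In LMNB2, IDH2-DT (partner a mitochondrial isocitrate dehydrogenase gene) stood at -0.42 ± 0.16 and LGALSL-DT at -0.24 ± 0.09, both with an adjusted p of 0.86. In LMNA, MAFG-DT, beside a small Maf transcription factor gene, held 1.45, 1.4 and 1.3 CPM in GFP and 1.68, 1.71 and 1.74 in LMNA (0.30 ± 0.11, adjusted p = 0.895). The LMNA libraries of MAFG-DT were above those of GFP, a difference that did not pass. VPS33B-DT and NDUFA6-DT, with 10 to 20 and 29 to 43 counts in GFP, differed by 0.98 ± 0.39 and 0.72 ± 0.24 in LMNA (adjusted p = 0.932 and 0.867), and in LMNB1 ZKSCAN2-DT stood at -0.18 ± 0.06 and EPCAM-DT at 0.14 ± 0.05 (adjusted p = 0.978 for both).

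Across the 30 names tested in small RNA, the small RNA and ATAC log2 fold changes of the same interval were barely related. Spearman's rho was 0.12 in LMNA, 0.14 in LMNB1 and 0.04 in LMNB2. The names differ widely in counts, each assay's comparisons share the GFP libraries, and the values are a description. GMDS-DT, at -0.65 in LMNB2 in small RNA, stood at -0.06 ± 0.05 in ATAC. NOL4L-DT, at 0.97 in LMNA in small RNA, stood at -0.04 ± 0.06 in ATAC. The NUP50-DT interval at 0.99 in LMNB2 in small RNA stood at 0.02 ± 0.08 in ATAC.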

How the data were processed

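The authors deposited whole-number counts, per the values, for 175946 annotated non-coding features in small RNA-seq and for windows on and around the same features in ATAC-seq. The build is GRCh38, per the submitters' processing notes; the aligner, counting tool, use of strand and handling of multi-mapping or duplicate reads are not given in the sources used here. Starts in the deposited tables were read as counted from 0 and raised by 1, and intervals as padded by 25 bp on each side: of 2135 intervals compared with RefSeq hairpins, 600 had exactly these offsets, the most frequent ones. ATAC windows extend 125 bp beyond each interval.

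For each assay, all 12 libraries were fitted in edgeR 4.0.16 (R 4.3.3; filterByExpr, TMM, robust quasi-likelihood, a mean per group), with Benjamini-Hochberg adjustment over all tested features and a threshold of 0.05. Log2 fold changes use a prior count of 2, CPM the TMM-scaled library sizes. The script was tested on simulated data. DESeq2 1.42.0 was an alternative. Flanks were described by median CPM per kb. Replicate numbers did not pair the libraries (correlations of -0.08 to 0.23).

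Named members are those called in any lamin against GFP, the 3 with the lowest p in a comparison with fewer than 3 calls, the 10 most counted names in small RNA, the 5 most open windows per kb and the lowest p in each partner group with at least 5 tested intervals. CDKN2A-DT, and CHKB-DT, GMDS-DT, ITGB1-DT and NUP50-DT beyond what the rule names, were described after their values were seen. The members and lists were chosen with earlier results of these data known. LMNB1-DT was left out by the rule.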

Additional observations from a re-analysis of the deposited data

Results flagged for a closer look

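LHX1-DT stood out because the lamin groups differed from each other and not only from GFP. By edgeR's quasi-likelihood test its longest interval was 1.4 higher on the log2 scale in LMNB2 than in LMNA (adjusted p = 0.00892) and 1.03 higher than in LMNB1 (adjusted p = 0.0297), with the 3 LMNB2 libraries above the 3 of the other lamin in both. The nested intervals were 1.14, 1.12 and 1.1 higher in LMNB2 than in LMNA (adjusted p = 0.0339, 0.0379 and 0.0393). They hold mostly the same reads as the longest interval. The comparisons between lamins were not repeated in the alternative settings, so their dependence on single libraries was not tested.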

How the results depend on the processing

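The LHX1-DT difference between LMNB2 and GFP stayed positive in 22 of 22 settings (1.31 to 1.75) and was called in 19, with adjusted p from 0.000137 to 0.074. These counts include the main fit. They also include 1 interval per name and intervals free of another RNA class, which reuse the main fit and could not change the LHX1-DT value. Member calls in LMNB2 fell from 4 to 1 with 1 interval per name and to 0 with only the 6 libraries compared. Leaving out a library gave 0 to 24 calls. There were 0 without LMNB2 replicate 2 or 3, 1 without LMNB2 replicate 1 or GFP replicate 2, and 24 without GFP replicate 3. The share of all features called in these alternative fits is not given here. With no count filter NOL4L-DT gave 1 call in LMNA and 1 in LMNB1; leaving out a library gave 0 calls in each. Small RNA medians became -0.03 with 1 interval per name in LMNA and in LMNB2, and 0 in LMNA and 0.01 in LMNB2 with no count filter. In LMNB2 the median became 0.01 without intervals that overlap another RNA class. Total-count scaling gave 0.05 in LMNB1 and 0.06 in LMNB2, where it moved the median of all features to 0.11 and 0.19. Without single libraries the medians ran from -0.22 to -0.09, -0.11 to -0.03 and -0.26 to -0.08 in LMNA, LMNB1 and LMNB2. No direction of the small RNA medians is therefore claimed. The ATAC medians ran from -0.02 to 0.03, -0.02 to 0.04 and -0.07 to 0.0. In ATAC, total-count scaling gave member medians of 0.09, 0.20 and 0.08, beside 0.09, 0.19 and 0.11 for all windows, and turned ZKSCAN2-DT in LMNB1 from -0.18 to 0.02. The median log2 ratio of the window to its flanks, 0.33 with 5000 bp flanks, was -0.88 with 500 bp and 0.81 with 50000 bp. Beyond what these settings change by construction (libraries, intervals or flanks used), the cause was not tested. Replicate numbers are shared between groups but did not pair the libraries, and 7 of 12 libraries in each assay were closest to their own number. With the replicate number as a block, calls were 0, 0 and 4 in small RNA and 0, 0 and 0 in ATAC, as without it. The count filter left 30 of 99 names in small RNA, and whether more depth would add names was not tested.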
